A study of Rattus norvegicus with 8 samples.

Results

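The 8 genes Cd163, Mrc1, C1qa, C1qb, C1qc, Csf1r, Cd68 and F13a1, markers of tissue macrophages and the chains of complement C1q, were followed in rat diaphragm after myocardial infarction. They were taken by symbol from a table of raw read counts with 17055 rows. All 8 were found, and all 8 were among the 10522 genes that passed the filter on low counts. Diaphragm, the main muscle of inspiration, came from Sprague-Dawley rats 16 weeks after surgery. In the 4 MI animals (replicates 1 to 4) the left anterior descending coronary artery was tied near the left atrium, and the 4 Sham animals (replicates 5 to 8) had the same chest operation, under isoflurane and ventilation, without the tie. Each animal gave 1 library, and the sources used here do not give sex, infarct size or the region of diaphragm sampled.

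Macrophages live in skeletal muscle between the fibres, where they clear debris and take part in repair. Those that stay in a tissue for long are usually recognised by scavenger and lectin receptors such as CD163 and the mannose receptor MRC1, and they depend on signals through the CSF1 receptor. Complement C1q, the recognition unit that starts the classical complement pathway, is built from A, B and C chains encoded by C1qa, C1qb and C1qc. Macrophages are a main source of it. In the RefSeq gene list of the GRCr8 assembly the C1q chain genes stood next to each other on chromosome 5, in the order C1qb, C1qc, C1qa.

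Library totals ran from 8566143 to 15944048 counts in MI and from 7941402 to 24967251 counts in Sham, and the deepest library was Sham replicate 7. A floor of 3 counts corresponded to at most 0.369 CPM (counts per 1000000 reads, with TMM-scaled library sizes). The 8 genes together took 0.0110 to 0.0207% of the counts of an MI library and 0.0117 to 0.0290% of those of a Sham library. Skeletal muscle markers such as Acta1 and Ckm summed to 102295 to 134024 CPM in MI and 111476 to 134518 CPM in Sham, and heart muscle markers to 49.2 to 161.6 CPM and 15.8 to 103.2 CPM. In bulk tissue, fewer macrophages and less RNA per macrophage cannot be told apart.

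Promoter sequence is shown for C1qa and C1qb, chains of the same protein, for F13a1, whose levels followed C1qb closely across libraries, and for Cd68, whose levels followed the other genes least. Each line gives the 250 bases before the gene's start in RefSeq, build GRCr8. Capitals mark GAGGAA and its reverse complement, and likewise the motif GGAAGT on either strand. These letters are found in sites of ETS factors such as PU.1, the factor that macrophages need to form. Both motifs were chosen with the sequences in view.
C1qa, chr5:154419934-154420183, minus strand: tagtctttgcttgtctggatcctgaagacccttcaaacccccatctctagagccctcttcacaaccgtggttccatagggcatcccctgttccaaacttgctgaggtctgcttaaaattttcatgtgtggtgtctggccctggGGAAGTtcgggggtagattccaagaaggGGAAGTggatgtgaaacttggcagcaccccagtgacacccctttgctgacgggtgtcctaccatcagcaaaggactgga
C1qb, chr5:154407828-154408077, minus strand: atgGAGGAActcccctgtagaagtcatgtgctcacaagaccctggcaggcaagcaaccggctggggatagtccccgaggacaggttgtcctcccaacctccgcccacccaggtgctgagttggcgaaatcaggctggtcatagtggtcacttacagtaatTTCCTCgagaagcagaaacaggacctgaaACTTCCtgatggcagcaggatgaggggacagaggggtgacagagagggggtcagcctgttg
Cd68, chr10:54882442-54882691, minus strand: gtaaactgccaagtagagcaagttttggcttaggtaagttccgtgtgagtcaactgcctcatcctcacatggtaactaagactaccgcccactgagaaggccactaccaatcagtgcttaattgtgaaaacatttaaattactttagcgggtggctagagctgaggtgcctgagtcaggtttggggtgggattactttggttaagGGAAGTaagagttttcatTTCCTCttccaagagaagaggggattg
F13a1, chr17:28020947-28021196, plus strand: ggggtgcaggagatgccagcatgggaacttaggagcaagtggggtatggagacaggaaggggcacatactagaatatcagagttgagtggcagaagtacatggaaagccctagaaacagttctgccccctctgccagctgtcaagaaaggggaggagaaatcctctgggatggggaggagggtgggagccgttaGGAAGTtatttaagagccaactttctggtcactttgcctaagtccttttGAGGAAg
The RefSeq table held a promoter for 7 of the 8 genes, all but C1qc. GAGGAA was present on either strand in 5 of these 7, against 23.3% of 33469 promoters of the same length, and GGAAGT in 5 of 7, against 19.2%. Either motif was found in 6 of 7, against 36.7%. The Cd163 window held neither. Matches of the 2 motifs can overlap, and a match describes letters only.

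None of the 8 genes differed between MI and Sham beyond the spread between animals. Their log2 fold changes, MI minus Sham, were all below 0, as were those of 51.3% of all genes tested, and ran from -0.75 for Cd163 to -0.092 for F13a1 with a median of -0.28, against -0.0070 over all genes. In edgeR's quasi-likelihood test with Benjamini-Hochberg adjustment over all 10522 genes, 0 of the 8 passed an adjusted p of 0.05 in either direction, and so did 0% of all genes. At an unadjusted p under 0.05 there was 1 of the 8, Cd163, against 8.14% of all genes, 4.47% lower and 3.67% higher in MI. DESeq2 called 0 of the 8 and 0.133% of all genes, and limma-voom 0 and 0%. For 0 of the 8 did the groups not overlap, against 2.46% of all genes with every MI value below Sham and 2.09% with every MI value above.

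**Figure D1:**
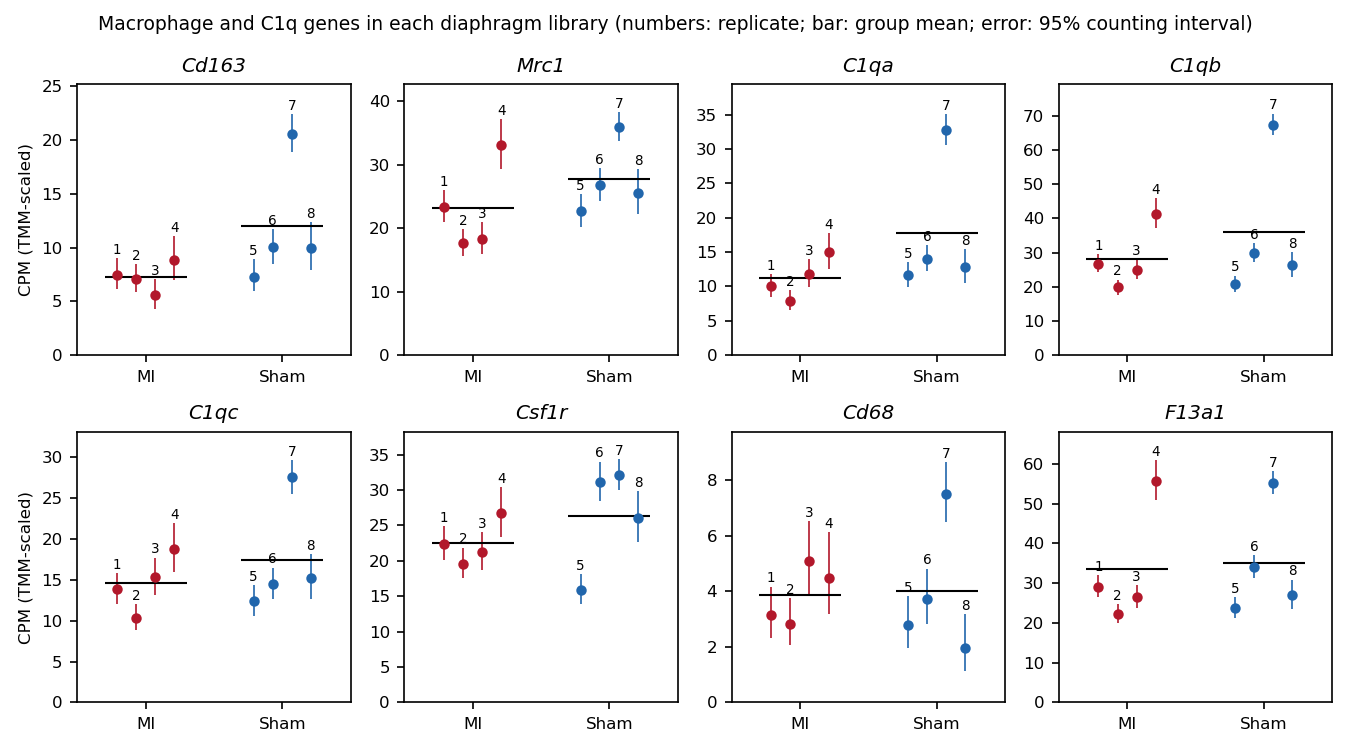
TMM-scaled CPM of the 8 genes in each library, with MI on the left and Sham on the right of each panel, numbers giving the replicate, black bars the group mean and error bars the 95% Clopper-Pearson counting interval. Sham replicate 7 is the highest library in every panel but that of F13a1, where MI replicate 4 is level with it.

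Of the scavenger receptors, Cd163 had the lowest log2 fold change of the 8 genes and Mrc1 the fifth lowest. Cd163, which takes up haemoglobin bound to haptoglobin, was at 7.48, 7.09, 5.58 and 8.87 CPM in MI replicates 1 to 4, against 7.32, 10.03, 20.6 and 9.96 CPM in Sham replicates 5 to 8. Sham replicate 7 lay far above the rest, Sham replicate 5 lay among the MI values, and the groups overlapped. MI averaged 7.25 ± 1.35 CPM and Sham 12.0 ± 5.88 CPM (SD, n = 4 each). On the log2 scale MI differed from Sham by -0.75 ± 0.31 (SE, edgeR adjusted p = 0.601). Mrc1, the macrophage mannose receptor, was at 23.4, 17.7, 18.3 and 33.1 CPM in MI and 22.7, 26.7, 35.9 and 25.6 CPM in Sham. Here 3 Sham libraries lay between the MI extremes, and MI replicate 4 was nearly as high as Sham replicate 7. Its log2 fold change was -0.28 ± 0.21 (edgeR adjusted p = 0.715). In the RefSeq list Mrc1 overlaps a long non-coding RNA and Mir511, whose reads cannot be told from its own in libraries for which no strand-keeping step is named.

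The C1q chains shared 1 pattern across libraries. C1qa was at 10.01, 7.94, 11.8 and 14.98 CPM in MI and 11.6, 14.0, 32.8 and 12.8 CPM in Sham. C1qb was at 26.8, 19.8, 25.0 and 41.4 CPM in MI and 20.7, 29.9, 67.4 and 26.3 CPM in Sham. For both chains Sham replicate 7 was highest, MI replicate 4 second and MI replicate 2 lowest, and the remaining libraries of the groups were intermixed. C1qc was at 13.8, 10.4, 15.3 and 18.8 CPM in MI and 12.4, 14.5, 27.5 and 15.2 CPM in Sham, in the same order at both ends. The log2 fold changes were -0.71 ± 0.36 for C1qa, -0.38 ± 0.40 for C1qb and -0.28 ± 0.27 for C1qc (SE), with edgeR adjusted p of 0.639, 0.798 and 0.767.

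Csf1r, the receptor through which CSF1 and IL-34 keep macrophages alive, was at 22.4, 19.6, 21.2 and 26.7 CPM in MI and 15.9, 31.1, 32.1 and 26.1 CPM in Sham. Sham replicate 5 was the lowest library and Sham replicates 6 and 7, nearly level, the highest, with all MI libraries between. MI minus Sham was -0.23 ± 0.20 on the log2 scale (edgeR adjusted p = 0.750). Cd68, a lysosomal membrane glycoprotein of macrophages, had the fewest reads, 16 to 195 per library. It was at 3.14, 2.81, 5.08 and 4.49 CPM in MI and 2.78, 3.73, 7.52 and 1.97 CPM in Sham, so both extremes were Sham libraries. In Sham replicate 8 its 16 reads gave a 95% counting interval of 1.12 to 3.20 CPM. Its log2 fold change was -0.13 ± 0.38 (edgeR adjusted p = 0.937). F13a1, the catalytic A subunit of coagulation factor XIII, is made by tissue macrophages and is also stored in platelets. Its levels were 29.1, 22.3, 26.5 and 55.8 CPM in MI and 23.8, 34.0, 55.2 and 27.0 CPM in Sham, with 1 high library in each group. The log2 fold change was -0.092 ± 0.36 (edgeR adjusted p = 0.951). The RefSeq list places Tpi1l2 within the bounds of F13a1.

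An exact two-sided permutation test of each gene's mean log2 CPM, over the 70 arrangements of the 8 libraries, gave unadjusted p from 0.0857 for Cd163 to 0.857 for Cd68. The smallest p that 70 arrangements allow is 0.0286. The mean level over the 8 genes was 3.86 ± 0.33 log2 CPM in MI and 4.12 ± 0.55 log2 CPM in Sham (SD, n = 4 each).

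Sham replicate 7 was the highest of all 8 libraries for 7 of the 8 genes and second, behind MI replicate 4, for F13a1. Over all genes tested it was the highest library for 14.5%. Its level over the median of the other 7 libraries was 2.77-fold for C1qa, 2.75-fold for Cd163, 2.56-fold for C1qb, 2.40-fold for Cd68, 2.04-fold for F13a1, 1.90-fold for C1qc, 1.54-fold for Mrc1 and 1.43-fold for Csf1r. Thus 5 of the 8 were at least 2-fold higher there, against 2.24% of all genes. The 8 genes were chosen with earlier results of these data known, and this library was named together with them. These shares are therefore a description and not a test. The excess was unequal, smallest for Csf1r and Mrc1. Per Csf1r read, Sham replicate 7 had 1.02 C1qa reads and 0.641 Cd163 reads, where the other 7 libraries had 0.405 to 0.733 and 0.263 to 0.461. C1qb, at 2.10 against 0.961 to 1.55, and C1qc, at 0.857 against 0.465 to 0.779, also lay above the others. For Mrc1 the same ratio was 1.12, within the 0.860 to 1.43 of the others. Cd68, at 0.234 against 0.0755 to 0.239, and F13a1, at 1.72 against 1.04 to 2.09, lay within the others too. Sham replicate 7 is also the deepest library. With every library thinned to the smallest total, the log2 fold changes, MI minus Sham, ran from -0.78 for Cd163 to -0.060 for F13a1. Thinning leaves the expected CPM of a library unchanged, so these values cannot bear on depth. Whether the excess goes with depth was not tested.

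Without Sham replicate 7 the differences shrank or turned. That library held the highest Sham value of each gene, so leaving it out raises their MI minus Sham values by construction. Of the 8 genes, 4 lay below 0 and 4 above, against 50.9% of all genes below 0, with a median of -0.043 against -0.0045 over all 10546 genes tested. Cd163 was at -0.34 ± 0.19, C1qa at -0.22 ± 0.20, Mrc1 at -0.13 ± 0.21 and Csf1r at -0.13 ± 0.21 (log2 fold change ± SE). On the other side of 0, Cd68 was at 0.40 ± 0.29, F13a1 at 0.22 ± 0.32, C1qb at 0.12 ± 0.24 and C1qc at 0.041 ± 0.19. No gene of the 8 had an unadjusted p under 0.05, against 4.87% of all genes, and edgeR adjusted p were 0.867 to 0.976, with 0% of all genes called. In 0 of the 8 did the groups separate, against 6.39% of all genes. An interval of 2 SE on either side spanned -0.72 to 0.045 for Cd163 and -0.62 to 0.19 for C1qa. The mean level over the 8 genes was 3.87 ± 0.22 log2 CPM in the 3 remaining Sham libraries (SD), against which MI differed by -0.0055 with the scaling of all 8 libraries kept, and by -0.013 with the scaling recomputed over the 7.

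**Figure D2:**
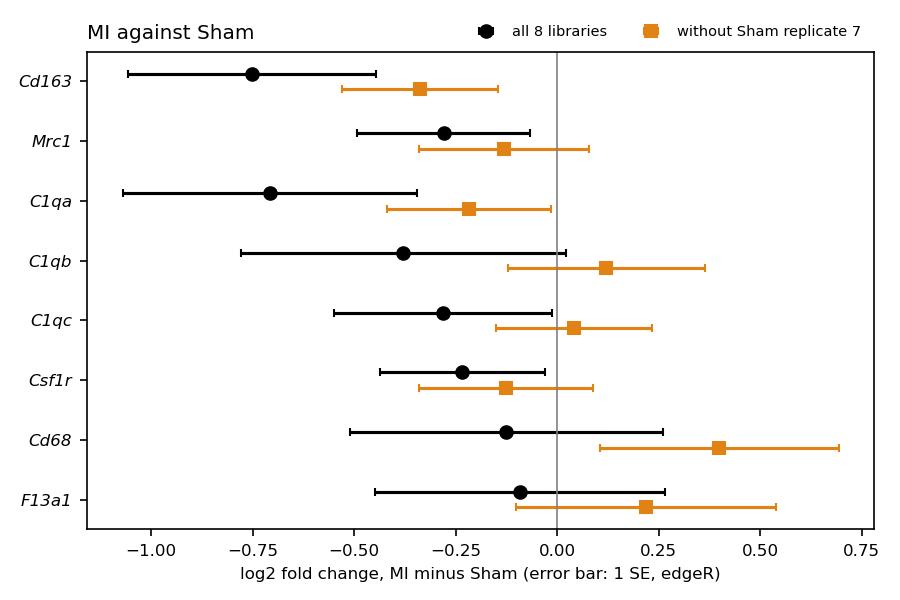
Log2 fold change of each gene, MI minus Sham, with 1 SE from edgeR, for all 8 libraries (black circles) and without Sham replicate 7 (orange squares). All 8 circles lie below 0, from -0.75 to -0.092, whereas the squares for C1qb, C1qc, Cd68 and F13a1 lie above 0.

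MI replicate 4 was the highest library for F13a1 and second for Mrc1, C1qa, C1qb and C1qc. Over all genes it was the highest library for 16.5%. Without it the log2 fold change of F13a1 was -0.44, and that of C1qb -0.61. Pf4 is a chemokine of platelets and some macrophages. It was at 5.34, 4.40, 11.8 and 44.9 CPM in MI and 3.73, 4.12, 6.79 and 4.92 CPM in Sham. MI replicate 4, with 44.9 CPM of Pf4, and Sham replicate 7, with 6.79 CPM, were level for F13a1, at 55.8 and 55.2 CPM. Adipoq, the fat cell hormone adiponectin, was at 20.8, 14.2, 55.0 and 100.2 CPM in MI and 26.1, 52.0, 36.4 and 14.6 CPM in Sham. The part of platelets, fat or neutrophils in the F13a1 values was not tested. MI replicate 2 was the lowest library for 5 of the 8 genes.

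Within a library, reads were also compared as ratios, which do not depend on library size. There were 9 ratios, 2 of C1q chains to C1qa and 7 of the other genes to Csf1r. In 8 of the 9 the MI and Sham ranges overlapped, and in 1, C1qc to C1qa, they did not. For any 1 ratio, full separation in either direction occurs in a share of 0.0286 of the 70 arrangements. The 9 ratios share genes and were all looked at. The ratio of C1qc to C1qa reads was 1.38, 1.31, 1.29 and 1.25 in MI replicates 1 to 4 and 1.06, 1.03, 0.840 and 1.19 in Sham replicates 5 to 8. Sham replicate 7 had the lowest ratio, and the groups also stood apart with it set aside. Means were 1.31 ± 0.053 in MI and 1.03 ± 0.15 in Sham (SD, n = 4 each). Counting error was of similar size. The 95% counting interval was 0.990 to 1.59 in MI replicate 4 and 0.911 to 1.56 in Sham replicate 8, the nearest pair. C1qb to C1qa ratios were 2.67, 2.49, 2.11 and 2.76 in MI and 1.78, 2.13, 2.06 and 2.06 in Sham, which overlapped through MI replicate 3. These ratios were described without a test, and they compare libraries, since reads per chain also depend on transcript length.

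**Figure D3:**
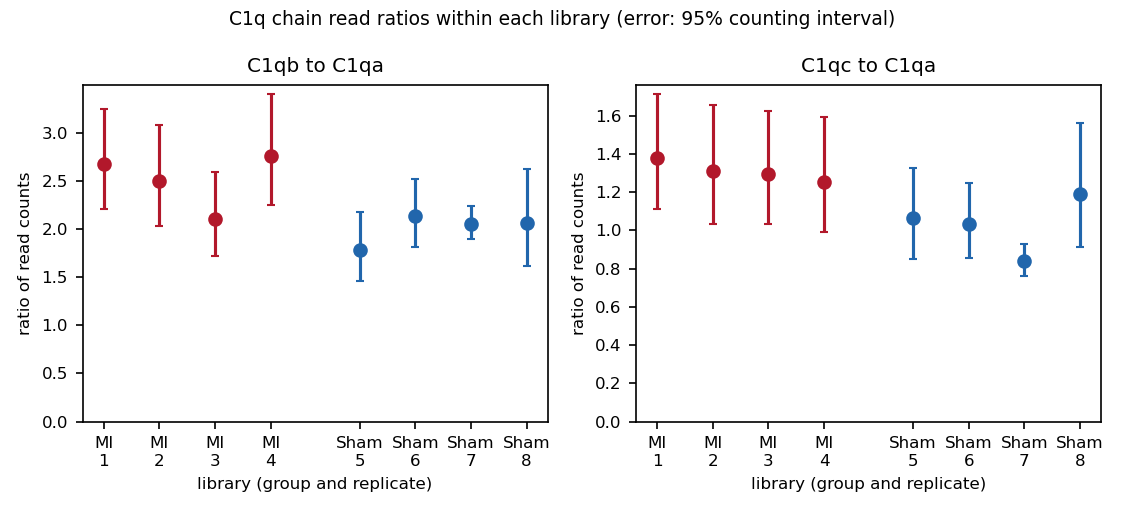
Ratio of C1qb to C1qa reads (left panel) and of C1qc to C1qa reads (right panel) in each library, MI in red and Sham in blue, with 95% counting intervals. The 4 MI points on the right sit between 1.25 and 1.38 and the 4 Sham points between 0.840 and 1.19.

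Across the 8 libraries the log2 CPM of the 28 pairs of these genes correlated with Pearson r of 0.452 to 0.967, median 0.787, as a description of libraries that share depth and tissue makeup. The closest pair was C1qb and C1qc, and the loosest Cd68 and Mrc1. Without Sham replicate 7 the median r over 7 libraries was 0.629. F13a1 and C1qb then stood closest, at 0.975, while Cd68 and Cd163 were at -0.411. Of 7981 other genes with a mean of at least 5 CPM, the 10 with the highest r with the mean of the 8 included Rnf145 (r = 0.965, Spearman rho 0.857), Pld2 (0.948, 0.905) and the terminal complement component C6 (0.944, 0.786). They also held the macrophage lectin Clec10a, the protease Ctss, the lipopolysaccharide co-receptor Cd14 and the leukocyte lysosome gene Laptm5, at r of 0.932 to 0.940, and Trim34, Tnfsf13 and Slc9a9. Over the 7 libraries without Sham replicate 7 the r of these 10 genes still ran from 0.807 for Clec10a to 0.913 for Rnf145. None of them was among the 10 highest over those 7 libraries. The 10 highest there included Chrdl1, Tial1, Stom, Man2a1, Apmap, Tmlhe, the fibroblast receptor Pdgfra (0.929), Zfp521 and Csad.

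Other genes of macrophages, complement and related pathways gave no call in edgeR either. In the 12 lists of related genes, 123 different genes were tested, of which 54 were higher and 69 lower in MI. Of these, 8 had an edgeR unadjusted p under 0.05, against 8.14% of all genes, and 0 passed after adjustment over all genes. Without Sham replicate 7 the balance turned to 74 higher and 49 lower. Then 6 had an edgeR unadjusted p under 0.05, against 4.87% of all genes, and 0 passed after adjustment. Among 12 tested markers of resident-type macrophages, 6 were higher and 6 lower, median -0.0090 on the log2 scale, and without Sham replicate 7, 8 were higher and 4 lower, median 0.13. Lyve1, a hyaluronan receptor shared by lymphatic endothelium and some resident macrophages, was at 74.8, 42.9, 49.5 and 44.8 CPM in MI and 59.0, 79.2, 109.7 and 111.9 CPM in Sham (-0.76 ± 0.25, edgeR adjusted p = 0.601). Siglec1, a sialic acid receptor of macrophages, had 0.550 to 2.65 CPM in MI and 1.02 to 6.98 CPM in Sham (-1.30 ± 0.67), or -0.36 ± 0.50 without Sham replicate 7. Slc40a1, the iron exporter ferroportin, was at 6.72 ± 1.90 CPM in MI and 4.74 ± 0.474 CPM in Sham (0.49 ± 0.21). Pf4, high in MI replicate 4, was at 1.70 ± 0.78.

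The balance of pan-myeloid genes depended on Sham replicate 7. Of 22 tested, 9 were higher and 13 lower in MI, median -0.11, and without that library 19 were higher and 3 lower, median 0.33. In the full fit 0 of them had an edgeR unadjusted p under 0.05, against 8.14% of all genes. Without Sham replicate 7, 3 did, against 4.87% of all genes. That library held the highest value of 17 of the 22, against 14.5% of all genes. Leaving out a Sham library in which these genes are highest raises their MI minus Sham values by construction. Ctss was at 20.3 ± 3.02 CPM in MI and 25.6 ± 14.4 CPM in Sham (-0.36 ± 0.34, or 0.13 ± 0.15 without that library). Ncf1, an NADPH oxidase subunit, and Cyth4 had log2 fold changes of 0.13 ± 0.094 and -0.28 ± 0.23. Genes of recruited and inflammatory macrophages were 5 higher and 7 lower of 12, median -0.010, and 9 higher and 3 lower, median 0.25, without Sham replicate 7. Il1b and Spp1 were at 0.41 ± 0.48 and 0.52 ± 0.54, and Gpnmb and Arg1 at -0.47 ± 0.35 and -0.54 ± 0.46.

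The CSF1 receptor axis had 2 genes higher and 5 lower of 7, median -0.22, and 3 higher and 4 lower, median -0.0078, without Sham replicate 7. The ligand Csf1 was at 8.28 ± 1.498 CPM in MI and 9.62 ± 2.31 CPM in Sham (-0.22 ± 0.20). Spi1, which encodes PU.1, was at 1.26 ± 0.559 CPM and 1.51 ± 0.570 CPM (-0.32 ± 0.39), and the cytokine receptor chains Csf2ra and Csf2rb at -0.30 ± 0.31 and -0.13 ± 0.39. Without that library Spi1 was at -0.0078 ± 0.41, Csf2ra at -0.034 ± 0.32 and Csf2rb at 0.074 ± 0.43. Endocytic lectins related to Mrc1 had 1 gene higher and 5 lower of 6, or 3 and 3 without it, with Mrc2 at -0.59 ± 0.38, Pla2r1 at -0.20 ± 0.28, Clec7a at 0.26 ± 0.41 and Colec12 at -0.23 ± 0.16.

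Downstream of C1q, 7 of 8 tested components of the classical pathway were lower in MI and 1 higher, at a median of -0.39 on the log2 scale, and -0.15 without Sham replicate 7, still with 7 lower. No component had an edgeR unadjusted p under 0.05 in either fit, against 8.14% and 4.87% of all genes. C4a was at 53.1 ± 23.6 CPM in MI and 84.8 ± 25.0 CPM in Sham (-0.68 ± 0.38). C4a and C4b (-0.55 ± 0.37) are near-identical copies among which reads could be divided. C3, the central component, was at 45.3, 8.49, 11.0 and 30.5 CPM in MI and 23.9, 26.6, 51.5 and 39.8 CPM in Sham, so that 2 MI libraries lay below all others. C6 was at 5.82 ± 3.06 CPM and 9.79 ± 6.75 CPM (-0.83 ± 0.50, or -0.18 ± 0.34 without Sham replicate 7). In the alternative and lectin pathways 6 of 7 were lower, median -0.23. Among them Fcn1, a ficolin, had 18.9 CPM in Sham replicate 7 and at most 6.76 CPM elsewhere (-1.03 ± 0.51, or -0.27 ± 0.28 without it). Properdin, Cfp, was at -0.18 ± 0.26 and the protease Masp2 at -0.30 ± 0.22.

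Complement regulators lay on the other side, with 9 of 10 higher in MI and a median of 0.13, or 7 of 10 and 0.067 without Sham replicate 7. Vtn, vitronectin, an inhibitor of the terminal complex, was at 46.7, 75.4, 52.3 and 61.6 CPM in MI and 46.2, 44.9, 43.3 and 41.3 CPM in Sham. Every MI value lay above every Sham value, narrowly for MI replicate 1 (0.43 ± 0.14, edgeR adjusted p = 0.601). Such separation was found for 2.09% of all genes tested, and Vtn was named for its small p. The C1 inhibitor Serping1 was at 0.26 ± 0.24, Cr1l at 0.15 ± 0.084 and C4bpb at 0.70 ± 0.40. Receptors for complement fragments had 3 of 9 higher, median -0.036, and 6 of 9 without Sham replicate 7. The anaphylatoxin receptor C3ar1 was at 0.43 ± 0.29. The integrin chains of complement receptor 3, Itgam and Itgb2, were at -0.35 ± 0.66 and -0.51 ± 0.57, and both turned positive, 0.46 ± 0.60 and 0.35 ± 0.38, without Sham replicate 7. Lrp1 was at -0.16 ± 0.14.

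Among haem and iron genes, which act with Cd163 in disposing of haemoglobin, 6 of 10 were higher and 4 lower, median 0.045. Blvrb, a biliverdin reductase, was at 28.6 ± 3.59 CPM in MI and 23.7 ± 1.70 CPM in Sham (0.28 ± 0.11), Fth1, ferritin heavy chain, at 0.17 ± 0.098, and Hmox1, haem oxygenase 1, at -0.23 ± 0.17. Red blood cell genes were higher in MI for 6 of 6 tested at an edgeR unadjusted p under 0.05, against 3.67% of all genes. After adjustment 0 of them passed. These genes mark the same cell type and are not independent observations. They summed to 369 to 806 CPM in MI and 236 to 378 CPM in Sham. Sham replicate 7, with the most Cd163, had the lowest of these sums, 236 CPM. Sham replicates 5 and 6 were close to that, at 258 and 255 CPM, with 7.32 and 10.03 CPM of Cd163. MI replicate 4 had the highest sum, 806 CPM, and 8.87 CPM of Cd163. A link between them was not tested. Lysosome genes were divided, 6 higher and 9 lower of 15. Of these Ctsz, the carboxypeptidase cathepsin Z, was at 20.6, 23.2, 21.3 and 21.5 CPM in MI and 24.7, 29.8, 38.9 and 32.0 CPM in Sham. Each MI value lay below each Sham value, as for 2.46% of all genes tested, and Ctsz was named for its small p. The log2 fold change was -0.53 ± 0.13 (edgeR unadjusted p = 0.00193, adjusted p = 0.601), or -0.42 ± 0.12 without Sham replicate 7. Lamp2 and Cd63 were at 0.15 ± 0.087 and 0.24 ± 0.10. Coagulation and transglutaminase genes had 6 higher and 5 lower of 11, or 5 and 6 without Sham replicate 7, with Thbd, thrombomodulin, at -0.32 ± 0.14, F3 at 0.30 ± 0.17, Tfpi at 0.17 ± 0.097 and Plaur at -0.36 ± 0.30.

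Markers of lymphocytes were high together with the 8 genes in Sham replicate 7. Lymphocyte markers, of which 6 of 17 were abundant enough to test, summed to 9.55 to 21.7 CPM in MI and 11.3 to 51.5 CPM in Sham, where the 51.5 was Sham replicate 7 and the next Sham library had 12.8. All 6 tested had their highest value there, against 14.5% of all genes. The B cell genes Cd79b and Ms4a1 had 6.94 and 5.90 CPM there and at most 1.38 and 0.508 CPM in any other library. MHC class II and dendritic cell genes summed to 277 to 503 CPM in MI and 199 to 440 CPM in Sham, with RT1-Bb listed at 0 in Sham replicate 7. Mast cell markers summed to 60.5 to 104.1 CPM in MI and 80.6 to 119.9 CPM in Sham. Neutrophil markers, of which S100a9 was the only 1 of 7 abundant enough to test, summed to 1.41 to 12.7 CPM in MI and 1.29 to 3.95 CPM in Sham. The 12.7 was MI replicate 4, where S100a9 had 8.76 CPM, against at most 2.70 CPM in any Sham library, and the next MI library summed to 4.65 CPM. Fibroblast markers summed to 1976 to 3509 CPM in MI and 1861 to 2572 CPM in Sham, and endothelial markers to 244 to 345 CPM and 270 to 318 CPM. Adipocyte markers had 31.1 to 200.2 CPM in MI and 36.6 to 94.5 CPM in Sham, and 5 of 5 tested mesothelial markers were lower in MI. The part of any of these cell types in the values of the 8 genes was not tested.

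**Figure D4:**
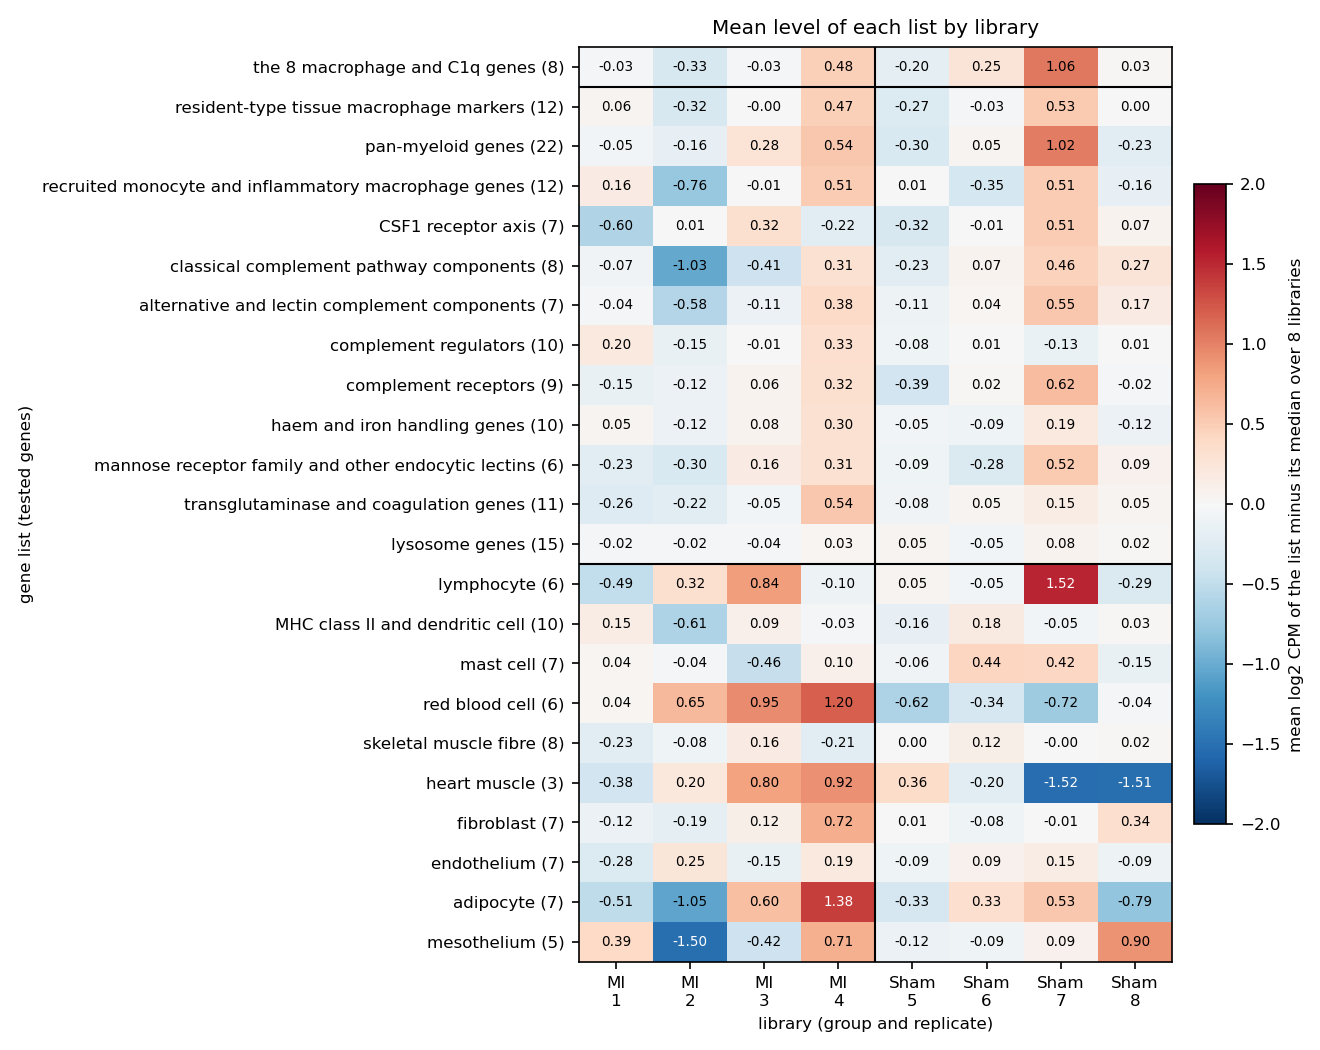
Mean log2 CPM of each gene list in each library, minus the median of the list over the 8 libraries, with the number of tested genes in brackets, MI libraries on the left and Sham on the right. In Sham replicate 7 the 8 macrophage and C1q genes stand at 1.06, pan-myeloid genes at 1.02 and lymphocyte genes at 1.52, and MI replicate 4 has the next highest value of the 8 genes, 0.48.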

How the data were processed

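Total RNA from snap-frozen diaphragm was isolated with TRI Reagent, and libraries were made with SMARTer ultra-low-input and KAPA Hyper kits, per the labels' protocols; no step that keeps strand is named. The authors deposited 1 table of whole read counts, not normalized, with a row per gene symbol and a column per animal. Build rn5 and the programs STAR 2.5.0a, bcl2fastq, Cufflinks, TopHat and TopHat2 are named in the submitters' processing notes. In 25 rows, with 0.109% of the counts, the symbol is written as a date; they were kept as genes and are not named. The sources used here give neither the counting program nor its annotation. Groups came from the sample titles, which number animals 1 to 8 with no pairing. P-values measure the spread between these animals. Pairs of libraries within a group differed beyond sampling noise (chi-square per degree of freedom 12.1 to 44.3 over genes with at least 10 counts).

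Counts were tested with edgeR 4.0.16 under R 4.3.3 (filterByExpr, TMM factors, robust quasi-likelihood F test, two-sided, Benjamini-Hochberg over all genes tested, threshold 0.05). CPM are TMM-scaled, log2 CPM used a prior count of 2, and the SE is the log2 fold change divided by the square root of F. Alternatives were RLE factors, library totals, no filter, 1 CPM in 4 libraries, DESeq2 1.42.0, limma-voom (limma 3.58.1) with and without sample weights, no robust estimation, a term for the range of animal numbers, a threshold of 0.1, a prior count of 0.5 and leaving out each library. Thinned counts and leaving out MI replicate 4 with Sham replicate 7 were chosen after seeing the data. The test across genes was first tested on simulated counts.

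The 8 genes and the lists were chosen with earlier results of these data known. Named from each list were up to 4 genes with the smallest p and a mean of at least 1 CPM, and, for likeness, the 10 genes with the highest r; some genes that this rule picks are not reported here. Genes given with other cell types were chosen after their values were seen. List symbols absent from the table were matched through RefSeq synonyms where 1 older symbol was present. RefSeq, assembly GRCr8, gave names, neighbours and promoters. Intervals and floors cover counting error only.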

Additional observations from a re-analysis of the deposited data

Results flagged for a closer look

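C1qa in Sham replicate 7, at 32.8 CPM, stood apart from the other Sham libraries at 11.6, 14.0 and 12.8 CPM. The gap to the nearest of them was 0.887 of the range of the group, above Dixon's 95% critical value for 4 samples. For groups not chosen beforehand, chance alone flags about 1 in 20 by this rule, and 16 groups were looked at. Here the genes and Sham replicate 7 were named with earlier results of these data known, and the genes vary together. That rate therefore does not apply, and the gap is a description and not a test. For C1qc, C1qb and Cd163 in Sham the gap shares were 0.810, 0.803 and 0.796, under the critical value, and for F13a1 in MI, with replicate 4 high, 0.797.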

How the results depend on the processing

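Each log2 fold change of the 8 genes was recomputed under 19 alternatives. Of 152 values, 142 kept the sign and stayed short of the threshold and 10 changed sign, with a smallest adjusted p of 0.485. Without Sham replicate 7, an omission that raises these values by construction, C1qb turned to 0.12, C1qc to 0.041, Cd68 to 0.40 and F13a1 to 0.22. Cd68 also turned without MI replicate 2 (0.0031), with a term for the range of animal numbers (0.066) and without both MI replicate 4 and Sham replicate 7 (0.33). F13a1 turned without MI replicate 2 (0.058) or 3 (0.012) and with that term (0.082). The cause of the turns of Cd68 and F13a1 in the other settings was not tested. With 1 library left out, Cd163 ran from -0.93 to -0.34, Mrc1 from -0.49 to -0.13, C1qa from -0.87 to -0.22, C1qb from -0.61 to 0.12, C1qc from -0.42 to 0.041, Csf1r from -0.42 to -0.13, Cd68 from -0.32 to 0.40 and F13a1 from -0.44 to 0.22. The difference in mean level of the 8 genes was -0.26 log2 and ran from -0.43 to -0.013 in that way, with the scaling recomputed each time, and -0.27 to -0.26 under other scalings or a prior count of 0.5. Ratio differences, MI minus Sham, ran from 0.418 to 0.636 for C1qb to C1qa and 0.213 to 0.330 for C1qc to C1qa. Genes called over the whole table were 0 in the main test, 14 with DESeq2, and 0 to 1 with a library left out. No paired analysis was possible because the animals of the groups share no replicate number. Cd68, with 16 to 195 reads, is the gene most limited by depth.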
